A study of Mus musculus with 4 samples.

Results

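The genes described here encode the TAL1 and LMO transcription complex, a group of DNA-binding factors and bridging proteins that is known as a driver of T cell acute lymphoblastic leukaemia. The members were the rows of the deposited count table named TAL1, LYL1, LMO1, LMO2, LDB1, TCF3, TCF12, GATA3, RUNX1 and MYB, which made 10 of 58735 rows. All 10 had enough reads to be tested. RNA was sequenced from Jurkat, an established line of human leukaemic T cells, with 2 libraries labelled wild-type and 2 labelled as lacking MATR3 after CRISPR-Cas9 editing. The MATR3 product, matrin 3, binds RNA and sits in the nuclear matrix, and the question put by the labels is how its loss changes gene expression. Whether the knockout cells were a clone or a pool, and whether the libraries of a group came from separate cultures, is not stated in the labels, and a p-value here therefore reflects only how far these libraries spread, which may be technical variation.

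The libraries held 15008554 to 17477643 reads in genes. The targeted gene went against its label. MATR3 reads numbered 19 and 9 for the wild-type libraries and 42 and 61 for those labelled knockout, and a second MATR3 row that overlaps it held 1 to 5 reads per library. Reads in the overlap may have been counted for neither row, so these rows do not check the knockout, and all directions below are those of the libraries labelled knockout. T cell markers were present in all 4 libraries, but 12 of 13 fell, beside 32.3% of all genes tested. TRAC, a T cell receptor gene, was at a log2 fold change of -0.11 (-0.20 without wild-type replicate 2) and did not pass. The 13 markers summed to 3657 and 3402 CPM (counts scaled to a library total of 1e+06) in wild-type, against 1476 and 1439 CPM with the knockout label. Of 16 myeloid markers, 15 were tested and 14 rose, beside 33.7% of all genes tested. The 16 summed to 169 and 177 CPM in wild-type, against 6169 and 6043 CPM with the knockout label. ELANE and CSF3R, both granulocyte genes, had 0 reads in wild-type. MPO, the myeloperoxidase gene, made up most of that sum, at 4972 and 4867 CPM, while AIF1 (log2 fold change -0.07) did not pass and CD14 had too few reads to test. The 6 B cell markers summed to 14.2 to 16.4 CPM in wild-type and 9.51 to 10.6 CPM in the others, a difference carried by CD79A, which fell from 14.7 to 5.70 CPM in the means. The other 2 B cell markers tested rose, PAX5 from 0 reads in wild-type to 53 and 32 reads and BLNK from 0 and 2 to 11 and 11 reads, while MS4A1 was at 0 in all libraries. The 6 epithelial markers summed to 11.5 to 13.9 and 124 to 126 CPM, and the 3 that were tested rose, namely KRT18 by 4.53, KRT8 by 2.15 and CLDN4 by 1.20 on the log2 scale. CLDN4 lost its call without wild-type replicate 2 (0.95) or replicate 2 labelled knockout (0.66), and EPCAM and KRT19 were at 0 in all libraries. The 6 natural killer cell markers summed to 23.6 to 24.5 and 27.6 to 28.6 CPM, with KLRF1 at 0 in all libraries. Most of that sum was NKG7, at 22.6 and 27.8 CPM in the means. The 2 tested went opposite ways. NKG7 rose by 0.30 on the log2 scale (edgeR adjusted p = 0.0372), and NCAM1 fell by 2.36, from 21 and 15 reads to 2 and 4. The part of these marker shifts in the results below was not tested. Mitochondrial genes took 5.31% and 4.92% of reads in wild-type, against 9.49% and 9.33% with the knockout label.

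TAL1 is a basic helix-loop-helix (bHLH) factor that binds DNA as a dimer with an E protein, TCF3 (E2A) or TCF12 (HEB). LMO1 or LMO2 binds the bHLH dimer, and LDB1 binds the LMO protein and links it to further DNA-bound factors, among them GATA proteins. TAL1 and LMO2 are normally active in blood stem and progenitor cells and are shut off as thymocytes mature, and their expression in T cells is leukaemogenic. In Jurkat cells TAL1 is driven by an acquired enhancer bound by MYB, and TAL1, GATA3, RUNX1 and MYB are known to bind one another's enhancers in such leukaemias.

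Members that fill the same place in the complex moved in opposite directions. TAL1 and LMO1 fell, and their relatives LYL1 and LMO2 rose. RUNX1 and TCF3 fell, GATA3 fell slightly, MYB rose about as much as RUNX1 fell, TCF12 rose slightly, and the bridging factor LDB1 did not pass the test. By edgeR's quasi-likelihood test with Benjamini-Hochberg adjustment over 15294 genes, 9 of 10 members passed an adjusted p of 0.05, where 66.0% of all genes tested did. Of the members, 4 rose and 5 fell, beside 33.7% of all genes tested that rose and 32.3% that fell. The CPM of the groups did not overlap for any of the 10 members, as for 82.0% of all genes tested. The median log2 fold change was -0.18 for the members and 0.02 for all genes tested, and the median absolute log2 fold change was 0.98 for the members and 0.58 for all genes tested. Bulk libraries cannot tell fewer cells that express a gene from less of its RNA per cell.

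**Figure D1:**
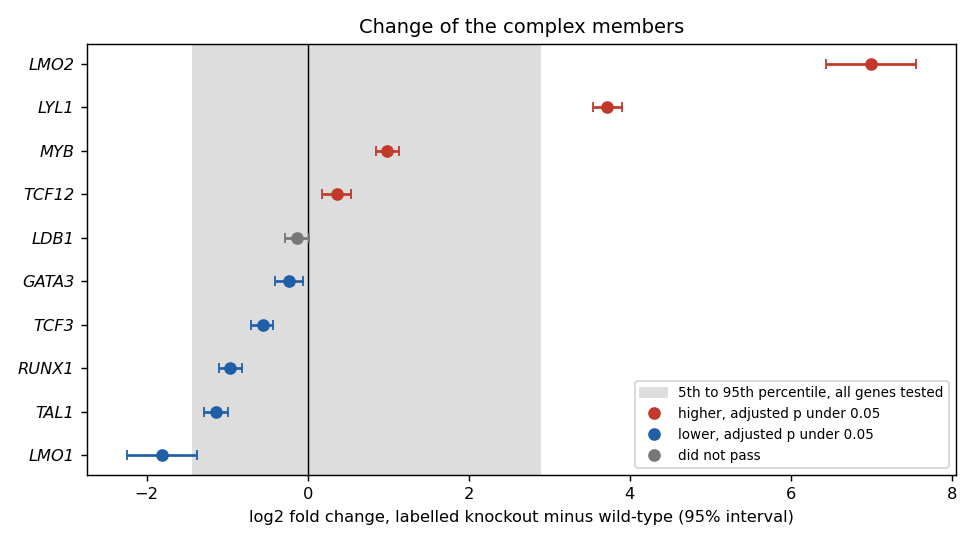
Log2 fold change of each member, libraries labelled knockout minus wild-type (x axis), with its 95% interval from the edgeR fit, members sorted by change (y axis). The grey band spans the 5th to 95th percentile of all genes tested, -1.42 to 2.88, and LMO2, LYL1 and LMO1 lie outside it.

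The transcripts of the bHLH factors TAL1 and LYL1 changed in opposite directions and reversed their order. Bulk RNA does not show whether both lay in the same cells or replaced each other in a complex. TAL1 (ENSG00000162367, chromosome 1, 47216290 to 47232220, coordinates from the deposited table) stood at 174 and 161 CPM in the wild-type libraries and at 78.3 and 73.6 CPM in those labelled knockout. Both wild-type values were higher than both others, and the mean in the libraries labelled knockout was 45.4% of wild-type. The log2 fold change was -1.14 (SE 0.077, edgeR adjusted p = 1.08e-22). LYL1 (ENSG00000104903, chromosome 19, 13099033 to 13103161) encodes a bHLH factor closely related to TAL1 that is used in blood progenitors. Wild-type libraries held 22.4 and 19.1 CPM, and those labelled knockout held 279 and 270.0 CPM. The groups lay far apart, with a log2 fold change of 3.72 (SE 0.088, edgeR adjusted p = 1.11e-51), larger in size than that of 96.1% of genes tested. Per length, as RPKM (CPM per kilobase of gene length), LYL1 made up 19.1% and 17.8% of the combined level of LYL1 and TAL1 in wild-type, against 86.7% and 87.0% with the knockout label. The sum itself went from 36.0 ± 2.30 to 101 ± 2.75 RPKM (SD, n = 2 each), a ratio of 2.82. The log2 ratio of LYL1 to TAL1 within a library, which does not depend on scaling between libraries, was -2.07 and -2.20 in wild-type, against 2.70 and 2.74 with the knockout label. A permutation test of 2 libraries against 2 cannot go below an exact two-sided p of 0.333, so these ratios are given without a p.

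The LMO proteins are small adaptors made of LIM domains that do not bind DNA themselves. Transcripts of LMO1 and LMO2 also reversed their order, from lower levels. LMO1 (ENSG00000166407, chromosome 11, 8224304 to 8268716) had 218 and 177 reads in wild-type, against 38 and 61 with the knockout label, or 12.5 and 11.1 CPM against 2.59 and 4.11 CPM. All values in the libraries labelled knockout were below those of wild-type, and the log2 fold change was -1.81 (SE 0.220, edgeR adjusted p = 2.08e-11). LMO2 (ENSG00000135363, chromosome 11, 33858576 to 33892289), the family member of blood stem cells and a known oncogene of the T lineage, had 6 and 2 reads in wild-type, against 450 and 482 reads with the knockout label. These were 0.344 and 0.126 CPM against 30.7 and 32.5 CPM. LMO2 was thus close to undetected in wild-type and well above LMO1 in the libraries labelled knockout. Its log2 fold change was 7.00 (SE 0.281, edgeR adjusted p = 4.12e-36), larger in size than that of 98.6% of genes tested. With 8 wild-type reads in all, the ratio of pooled reads was 132 with a 95% exact conditional interval of 66.6 to 306, which covers counting error only. The log2 fold change was 7.90 without wild-type replicate 1. Of the summed LMO1 and LMO2 level per length, LMO2 made up 1.47% and 0.610% in wild-type, against 86.6% and 81.1% with the knockout label, and the sum went from 7.07 ± 0.634 to 12.1 ± 1.05 RPKM (SD, n = 2 each). The rise of LMO2 and LYL1 was found in the libraries where the myeloid markers had summed to 6169 and 6043 CPM.

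LDB1 (ENSG00000198728, chromosome 10, 102107560 to 102120453) encodes the protein that dimerises and joins LMO-bound factors into one complex. It stood at 113 and 115 CPM in wild-type, against 104 and 105 CPM with the knockout label. The groups did not overlap but lay close together. The log2 fold change was -0.13 (SE 0.076, edgeR adjusted p = 0.124), with a 95% interval of -0.28 to 0.02, which on the linear scale runs from 0.823 to 1.01 of the wild-type level.

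Transcripts of the E proteins TCF3 and TCF12, the partners with which TAL1 or LYL1 binds DNA, moved less. TCF3 (ENSG00000071564, chromosome 19, 1609290 to 1652605) stood at 479 and 469.7 CPM in wild-type, against 319.6 and 322 CPM with the knockout label. The gap between the groups was far wider than the gap between replicates, with a log2 fold change of -0.56 (SE 0.070, edgeR adjusted p = 4.17e-11). TCF12 (ENSG00000140262, chromosome 15, 56918623 to 57299281) stood at 58.6 and 81.0 CPM in wild-type, against 85.4 and 93.7 CPM with the knockout label. The gap between its wild-type libraries was wider than that between wild-type replicate 2 and replicate 1 labelled knockout. Its log2 fold change of 0.36 (SE 0.090, edgeR adjusted p = 0.000284) was 0.16 without wild-type replicate 1 and 0.60 without wild-type replicate 2. Per length, TCF12 made up 7.31% and 9.99% of the summed E protein level in wild-type, against 14.7% and 15.8% with the knockout label, and the sum went from 85.4 ± 0.644 to 62.2 ± 0.890 RPKM (SD, n = 2 each). TCF3 remained the main E protein transcript of this pair in all 4 libraries.

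**Figure D2:**
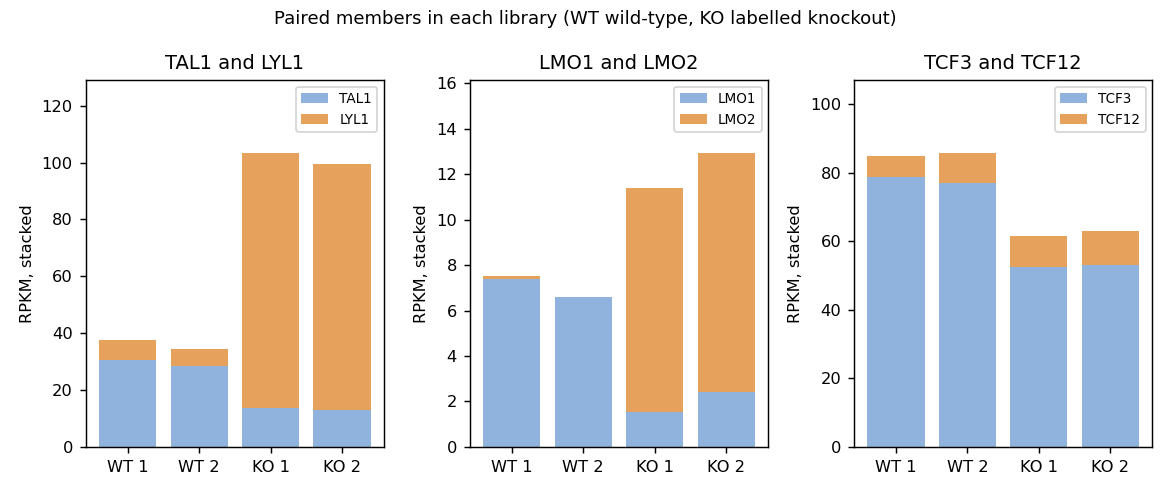
Level per length (RPKM, linear y axis from 0) of members that fill the same place, stacked for each library (x axis, WT wild-type, KO labelled knockout). LYL1 took 17.8% to 19.1% of its bar in wild-type and 86.7% to 87.0% in the libraries labelled knockout, while TCF3 stayed the larger part of its bar throughout.

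The 3 remaining members are factors that bind DNA beside the bHLH dimer. RUNX1 (ENSG00000159216, chromosome 21, 34787801 to 36004667), a Runt domain factor needed for definitive blood formation, stood at 377 and 365 CPM in wild-type, against 189 and 192 CPM with the knockout label. The replicates were close and the level fell to 51.4% of wild-type, with a log2 fold change of -0.96 (SE 0.071, edgeR adjusted p = 9.09e-21). MYB (ENSG00000118513, chromosome 6, 135181315 to 135219173), a factor of proliferating blood progenitors, stood at 182 and 213 CPM in wild-type, against 402 and 382 CPM with the knockout label. Here the libraries labelled knockout were the higher ones, by 1.99-fold in the means, with a log2 fold change of 0.99 (SE 0.073, edgeR adjusted p = 9.35e-21). GATA3 (ENSG00000107485, chromosome 10, 8045378 to 8075203), the GATA factor of T cells, stood at 75.3 and 74.1 CPM in wild-type, against 65.8 and 61.7 CPM with the knockout label. The groups were separate by a small margin, and the log2 fold change was -0.23 (SE 0.084, edgeR adjusted p = 0.0132). GATA3 no longer passed without replicate 1 labelled knockout (log2 fold change -0.28) or without replicate 2 labelled knockout (-0.18), nor with DESeq2's Wald test.

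The order of the members by level per length was rearranged. In wild-type TCF3 led at 78.0 ± 1.03 RPKM, followed by LDB1 at 40.9 ± 0.382, MYB at 35.9 ± 4.02, TAL1 at 29.4 ± 1.54, RUNX1 at 23.8 ± 0.523 and GATA3 at 21.7 ± 0.260 RPKM (SD, n = 2 each). TCF12 at 7.39 ± 1.67, LMO1 at 6.99 ± 0.585 and LYL1 at 6.66 ± 0.760 RPKM could not be ordered, because neighbours in this series overlapped, and LMO2 came last at 0.0756 ± 0.0498 RPKM (SD, n = 2 each). In the libraries labelled knockout LYL1 led at 88.1 ± 2.16 RPKM, ahead of MYB at 71.4 ± 2.58, TCF3 at 52.8 ± 0.273, LDB1 at 37.4 ± 0.292 and GATA3 at 18.5 ± 0.838 RPKM (SD, n = 2 each). TAL1 at 13.3 ± 0.590 RPKM lay just above RUNX1 at 12.2 ± 0.114 RPKM. LMO2 at 10.2 ± 0.409 and TCF12 at 9.48 ± 0.617 RPKM overlapped, and LMO1 came last at 1.98 ± 0.636 RPKM (SD, n = 2 each). LYL1 thus moved from among the lowest members to the top, and TAL1 from place 4 to place 6. The summed CPM of all 10 members, not scaled by length, was 1493 and 1509 in wild-type, against 1557 and 1537 with the knockout label. In this sum the rises of mainly LYL1 and MYB lay against the falls of mainly RUNX1, TCF3 and TAL1.

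**Figure D3:**
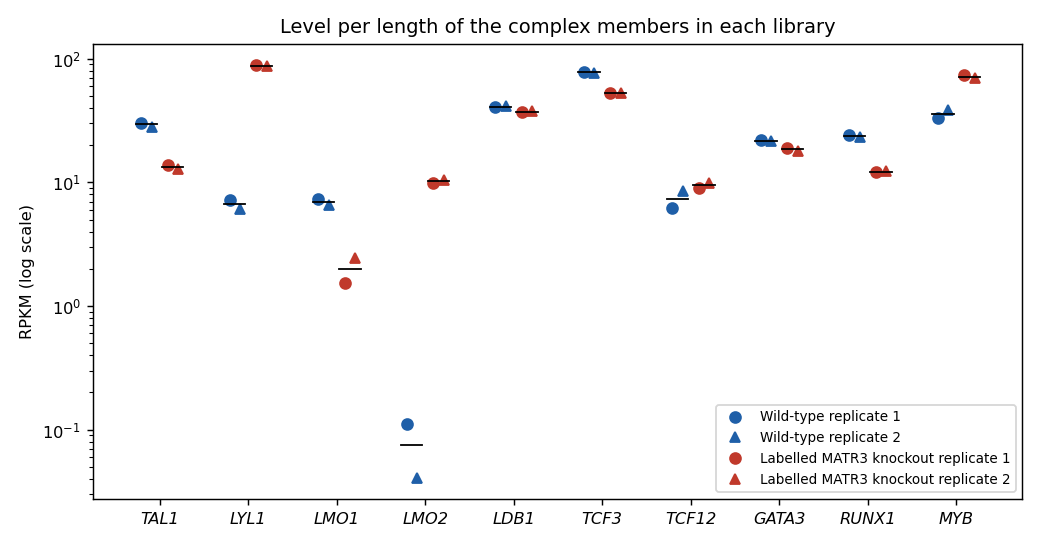
Level per length (RPKM, log y axis) of each member (x axis) in every library, circles for replicate 1 and triangles for replicate 2, blue for wild-type and red for labelled knockout, with a black bar at each group mean. LYL1 and LMO2 stand far higher in the red points, TAL1, LMO1 and RUNX1 lower, and LDB1 and GATA3 nearly level.

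The neighbours of each member along its chromosome, taken as the 3 nearest protein-coding genes tested on either side, were set beside the members without a test of the difference. Some lay far off, as the gaps ran from 0.237 kb (NFIX to LYL1) to 3748 kb (PROSER2 to GATA3). Around TAL1 the 6 neighbours had a median log2 fold change of -0.13, and 2 rose and 2 fell. STIL, a centriole gene next to TAL1, rose at 0.46. Around LYL1 the median was -0.23 and the values ran from -0.52 to 0.21, so none came near the 3.72 of LYL1, and NFIX, which ends 0.237 kb from it, fell at -0.49. Around LMO2 the median was 0.01, with CD59 at -1.44 and ABTB2 at 2.28 as the extremes. Around LMO1 the median was -0.08, with TUB, a signalling gene of neurons, at -1.99 and PPFIBP2 at 2.04. The 6 neighbours of TCF3 had a median of -0.48 beside its own -0.56, with 4 that fell. The neighbours of MYB had a median of 0.33, with 3 that rose, among them HBS1L at 0.41, which no longer passed without replicate 1 labelled knockout (0.36). Those of RUNX1 ran from -1.97 to 5.40 with a median of -0.33. The highest was CBR1, with so few wild-type reads that it was at 9.01 without wild-type replicate 2 and 4.42 without wild-type replicate 1. They included RCAN1, an inhibitor of calcineurin, at -1.40. For LDB1, TCF12 and GATA3 the medians were -0.40, 0.44 and -0.01.

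**Figure D4:**
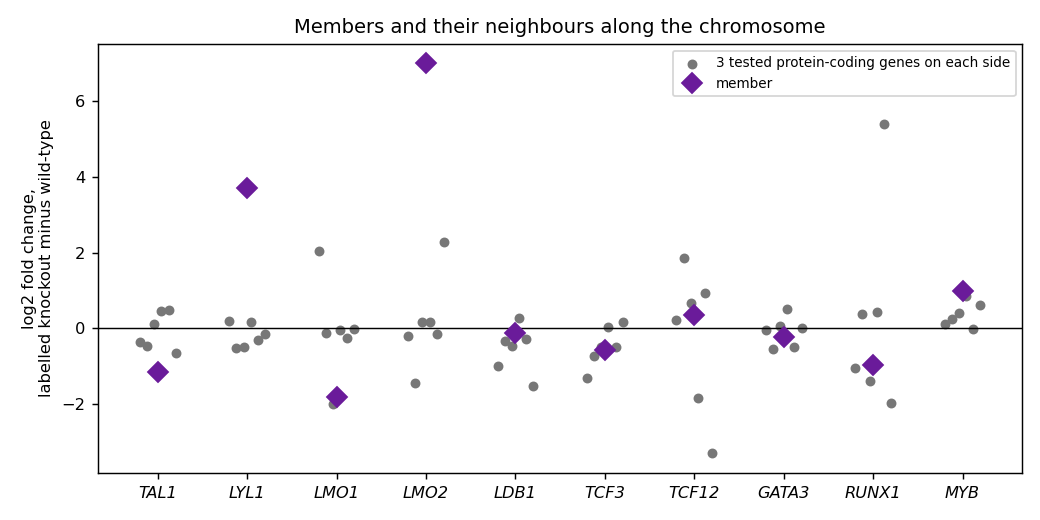
Log2 fold change, libraries labelled knockout minus wild-type (y axis), of each member (diamonds) and of 3 tested protein-coding genes on each side of it (grey points). The diamonds of LMO2, LYL1 and MYB lie above all their neighbours, MYB by a small margin (0.99 against 0.87 at most). That of TAL1 lies below all of its neighbours, and the diamonds of the other members lie among theirs.

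Some members overlap other rows, and the strand setting of the counting is not given, so their reads may be shared. The antisense row AL135960.1 overlaps TAL1 over 4954 bases and had 56 and 51 reads in wild-type, against 28 and 12 with the knockout label (log2 fold change -1.24, adjusted p = 0.00168, edgeR). Over LMO2, the antisense row AC132216.1 had 0 reads in both wild-type libraries but 9 and 4 elsewhere, too few to test. Other overlapping rows held at most 10 reads in any library.

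Relatives of the members, from lists chosen with earlier results of these data known, showed which further subunits were expressed. GATA2, the GATA factor of stem and progenitor cells, stood at 27.1 ± 2.05 CPM in wild-type and at 248 ± 12.7 CPM with the knockout label (SD, n = 2 each). Its log2 fold change was 3.19 (SE 0.085, edgeR adjusted p = 4.52e-48). GATA1, the erythroid GATA factor, had 0 reads in wild-type, against 9 and 12 with the knockout label, too few to test. RUNX2, a Runt factor best known in bone, stood at 2.85 ± 0.0540 and 62.6 ± 2.07 CPM (SD, n = 2 each), a log2 fold change of 4.45. RUNX3 was at 0.19 and lost its call without wild-type replicate 2 (0.13), replicate 1 labelled knockout (0.23) or replicate 2 labelled knockout (0.16). CBFB, the shared partner that stabilises Runt factors on DNA, stood at 117 ± 6.65 and 109 ± 3.22 CPM (SD, n = 2 each) and did not pass. ZFPM1, the GATA cofactor FOG1, fell by 0.74 and MYBL2, a cell cycle MYB factor, by 0.62 on the log2 scale. Of the 7 genes of this list that were tested, 3 rose and 2 fell, beside 33.7% and 32.3% of all genes tested, with a median of 0.05.

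ID proteins bind E proteins and keep them off DNA. ID1 fell by 0.97 and ID3, the most abundant ID gene here per length, at 199 ± 2.24 and 134 ± 0.0551 CPM (SD, n = 2 each), by 0.57 on the log2 scale. ID2 rose by 1.17 and TCF4, the third E protein gene, by 2.11 on the log2 scale, from 1.35 ± 0.0415 to 5.86 ± 1.05 CPM (SD, n = 2 each). Those were all 4 of the 6 listed genes that could be tested. TAL2 had at most 2 reads in a library and ID4 had none.

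Partners of the LMO and LDB1 bridge also divided. SSBP2, SSBP3 and SSBP4, of a family that binds LDB1 and protects it from degradation, fell by 0.98, 0.76 and 0.93 on the log2 scale. SSBP4, for example, went from 327 ± 16.5 to 171 ± 1.71 CPM (SD, n = 2 each). RLIM, a ubiquitin ligase that marks LDB1 and LMO proteins for degradation, rose by 0.81 and the LMO family gene LMO4 by 0.63. LMO3 and LDB2 had at most 1 read in a library. The list therefore had 3 of 5 tested genes lower and 2 higher, with a median log2 fold change of -0.76. All 5 passed, beside 66.0% of all genes tested.

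Corepressors and coactivators recruited by the complex or its partners were mostly higher, but the 3 most abundant per length in wild-type fell. Of 11 tested, 8 rose and 3 fell, beside 33.7% and 32.3% of all genes tested, with a median log2 fold change of 0.55. HDAC1, a histone deacetylase, fell from 532 ± 2.00 to 224 ± 5.02 CPM, and CBFA2T3 (ETO2), a corepressor bound by TAL1 complexes, from 211 ± 2.21 to 103 ± 0.754 CPM (SD, n = 2 each). KDM1A, a histone demethylase that TAL1 recruits, fell by 0.38 on the log2 scale. RCOR1, the scaffold that joins KDM1A to deacetylases, rose by 0.92, HDAC2 by 0.86, and the acetyltransferase genes KAT2B, EP300 and CREBBP by 0.88, 0.62 and 0.55. Among ETS factors that act with the complex in progenitors, ETV6 rose by 0.89 and ETS1 fell by 0.35, while FLI1 was at 0.16 and did not pass, though it did without wild-type replicate 2 (0.18). ERG had 5 to 11 reads per library and was not tested.

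Genes reported as activated by TAL1 in T cell leukaemia were lower. Of 14 tested, 12 fell and 2 did not pass, beside 32.3% of all genes tested that fell, and the median log2 fold change was -0.67. With DESeq2's Wald test 10 of the 14 fell. In the same libraries 12 of 13 T cell markers fell, with a median of -1.35, and the part of that shift in this list was not tested. SIX6, a homeobox gene, had 1583 and 1365 reads in wild-type, against 95 and 89 with the knockout label, a log2 fold change of -3.82 (SE 0.121, edgeR adjusted p = 6.4e-43). ALDH1A2, an enzyme that makes retinoic acid, had 2522 and 2406 reads against 250 and 193, a log2 fold change of -3.30. In each of these genes both libraries labelled knockout lay far below both wild-type libraries. TRIB2, TRAF3 and CDK6 fell by 0.65, 0.68 and 0.66, and ARID5B was at -0.20 and did not pass. The list also holds 7 GIMAP GTPase genes, which lie together on chromosome 7, 150450630 to 150750033. Of these, 6 fell and GIMAP7 was at -0.30, with a median of -0.62 and GIMAP2 lowest at -1.66. The 20 tested protein-coding genes around them, 10 on each side, had a median of -0.76, and 18 of those fell. Outside the cluster 6 of 7 targets fell, with a median of -0.68. Calls were lost for GIMAP1 without replicate 2 labelled knockout (-0.47), for GIMAP5 without wild-type replicate 1 (-0.76) or replicate 2 labelled knockout (-0.75), and for GIMAP8 without wild-type replicate 2 (-1.07) or replicate 1 labelled knockout (-0.81). GIMAP7 passed without wild-type replicate 1 (-0.57).

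**Figure D5:**
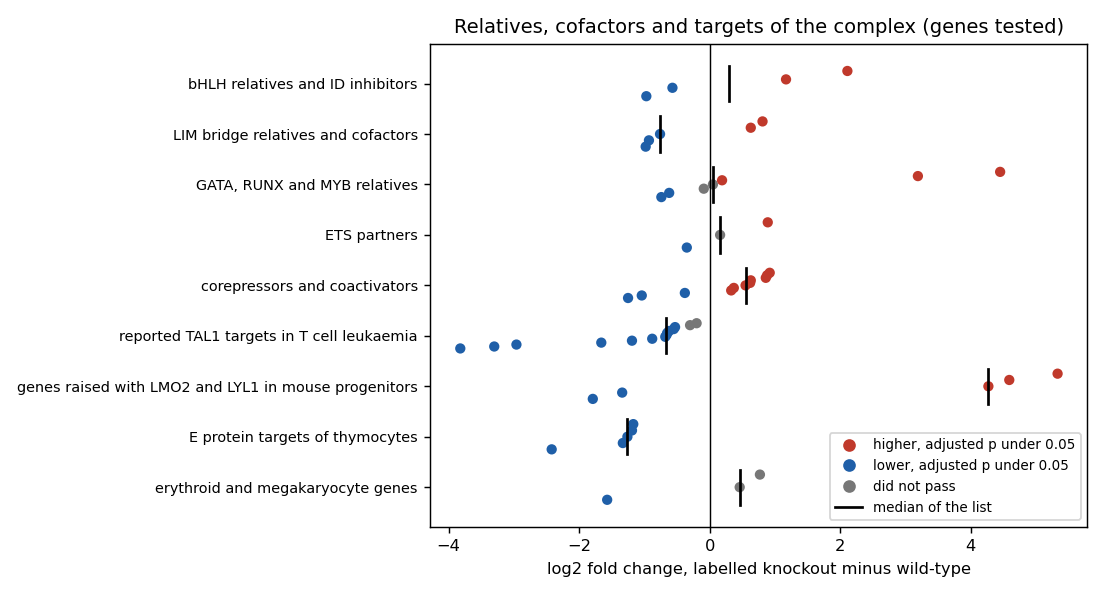
Log2 fold change, libraries labelled knockout minus wild-type (x axis), of the tested genes of each list (y axis), red for genes that rose, blue for those that fell and grey for those that did not pass, with a black bar at the list's median. The TAL1 target and E protein target lists lie below 0, with medians of -0.67 and -1.26, and 3 genes of the LMO2 and LYL1 list lie above 4.

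Genes that rise with LMO2 and LYL1 in mouse progenitors and preleukaemic thymocytes were split. NFE2, a bZIP factor of the megakaryocyte and erythroid lineages, had 50 and 37 reads in wild-type, against 1564 and 1538 with the knockout label, a log2 fold change of 5.33 (SE 0.133, edgeR adjusted p = 5.74e-50). HHEX, a homeobox gene of progenitors, had 24 and 17 reads against 369 and 336, and was at 4.27. GFI1B, a repressor of erythroid and megakaryocyte cells, had 5 and 2 reads against 58 and 97, and was at 4.59, or 5.32 without wild-type replicate 1. KIT, the stem cell factor receptor, fell by 1.79 and MYCN by 1.34 on the log2 scale. MEF2C had 0 reads in wild-type, against 8 and 9 with the knockout label, too few to test. Of the 5 tested, 3 rose and 2 fell, beside 33.7% and 32.3% of all genes tested. The list's summed level was 25.6 and 31.2 CPM in wild-type, against 145 and 143 CPM with the knockout label, in which 14 of 16 myeloid markers rose and the 16 summed to 6169 and 6043 CPM.

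All 5 E protein targets of thymocytes fell, beside 32.3% of all genes tested, and 4 of 5 did with DESeq2's Wald test. These were PTCRA, the pre-T cell receptor chain, at -2.42, the recombinase genes RAG2 at -1.33 and RAG1 at -1.19, CD3E at -1.26 and the terminal transferase gene DNTT at -1.17 on the log2 scale. The 5 genes summed to 789 and 788 CPM in wild-type and to 337 and 321 CPM in the libraries labelled knockout, mostly through CD3E, which is also 1 of the 13 T cell markers. RAG2, at 34 and 40 reads in wild-type against 13 in each of the others, no longer passed without wild-type replicate 2 (-1.15). PTCRA had 60 and 62 reads against 13 and 7.

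Erythroid and megakaryocyte genes, among which are targets of TAL1 in red cell precursors, had few or no reads apart from TFRC. Of 15 listed, 3 were tested, and HBB, GP9, PF4 and HBG1 were among those with 0 reads in all 4 libraries. TFRC, the transferrin receptor used by all proliferating cells, fell from 228 ± 20.1 to 76.5 ± 2.39 CPM (SD, n = 2 each), a log2 fold change of -1.57. KLF1 had 7 to 16 reads per library and was at 0.77, and ITGA2B had 31 to 41 reads and was at 0.46, and neither passed.

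With 2 conditions, many genes share a member's profile. The closest protein-coding genes were sought by the root mean square difference of log2 CPM over the 4 libraries. For TAL1 these were TP53I11 (difference 0.0085), CYB561A3 (0.055) and RRM2 (0.056). For LYL1 they were MYO1F (0.21), PLOD3 (0.29) and GATA2 (0.30). For LMO2 they were SERPINB1 (0.31), MGST2 (0.31) and MAGEB2 (0.33).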

How the data were processed

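The authors deposited raw read counts per gene, without normalization, in 1 table whose 4 columns were assigned to libraries by the short names in the sample descriptions. The submitters' processing notes list featureCounts 1.5.0-p3, CASAVA 1.8 and HISAT2 2.0.5 without roles, and for genome build and strand setting: not given in the sources used here. Identifiers are human although mouse is the labelled organism, so the table was read as human. Identifiers, symbols, lengths and coordinates come from the table. Counts were scaled by TMM (factors 0.978 to 1.04), filtered with edgeR's default rule (10 reads minimum, 15 in total) and fitted with edgeR 4.0.16 under R 4.3.3, two-sided, on all 4 libraries without covariates. Replicates differed by more than sampling noise (chi-square per tested gene 5.83 and 2.21), so none was a duplicate deposit. The SE was derived as the absolute log2 fold change divided by the square root of edgeR's F statistic, and the intervals used it with the t distribution. RPKM used the table's gene lengths, and within-library ratios added 2 reads. No human sequence was at hand, so no promoter was searched.

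The members, the gene lists and the named genes (all members, up to 4 most changed genes of each list, neighbours, closest profiles) were chosen with earlier results of these data known. Other genes named were chosen after their values were seen. The alternatives were 3 other scalings (none, upper quartile, DESeq2 size factors), the tests of DESeq2 1.42.0 and limma 3.58.1 voom, other filters, coding genes only, stricter thresholds, a replicate block and leaving out each library. Values of some listed genes are not reported here.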

Additional observations from a re-analysis of the deposited data

How the results depend on the processing

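All 130 values of the 10 members under the 13 alternatives kept their direction, and 125 stayed on the same side of the threshold. The exceptions were LDB1, which passed without a composition factor (log2 fold change -0.18, adjusted p = 0.0245, range over its alternatives 0.0245 to 0.442), and GATA3, which did not pass with DESeq2's Wald test (-0.22, adjusted p = 0.0645), without an expression filter (-0.23, adjusted p = 0.0558) or without 1 of the libraries labelled knockout (-0.28 to -0.18 over all 4 left-out libraries). The adjusted p of GATA3 ranged from 0.00507 to 0.27 over its alternatives, and the cause was not tested. TCF12 ranged from 0.16 to 0.60 and was near the threshold without wild-type replicate 1 (adjusted p = 0.0495, range 1.11e-06 to 0.0495). Requiring a 2-fold change left 4 of 10 members (LYL1, LMO2, TAL1 and LMO1) and 4016 genes in all. By that rule 15.6% of all genes tested rose and 10.7% fell. Without an expression filter 2 erythroid and megakaryocyte genes passed, and 1 to 2 did without each library in turn. The log2 ratio of LMO2 to LMO1 differed between the groups by 8.87 with 0.5 reads added, against 8.35 with 2, since LMO2 had few wild-type reads. The deviations of same-numbered libraries had a correlation of 0.0294 over 10600 genes, which cannot show whether these libraries shared a batch. With a replicate block 10072 genes and 9 members passed, so no member's call changed under the block. Depth limits LMO2 in wild-type, LMO1 in the libraries labelled knockout, and the lists' genes with few reads.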

Other observations

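The table's own family column puts 101 rows in the bHLH family, of which 56 were tested, 20 rose and 22 fell, with 75.0% passing beside 66.0% of all genes tested and a median log2 fold change of 0.02. Among these 56, LYL1 ranked 24 by level per length in wild-type and 2 in the libraries labelled knockout, below MYC, and TAL1 ranked 9 and 16. By size of change LYL1 ranked 7 and TAL1 ranked 23. Genes that rose more than LYL1 included SOHLH2 (8.59), MITF (7.77), BHLHE41 (6.28) and AHR (4.12), each at 0.0298 RPKM or less in wild-type. Other bHLH genes with large rises, named after their values were seen, were OLIG2, a factor of glial precursors that was also found in T cell leukaemias, from 0.0179 to 4.12 RPKM, its relative OLIG1 from 0.451 to 6.70 RPKM, and BHLHE40, a factor of activated T cells and myeloid cells, from 2.66 to 17.3 RPKM. In the GATA zinc finger family, GATA2 at 55.6 RPKM stood above GATA3 at 18.5 RPKM in the libraries labelled knockout, whereas in wild-type GATA3 at 21.7 RPKM stood above GATA2 at 6.07 RPKM. Among the 3 Runt genes, RUNX1 led in wild-type at 23.8 RPKM with RUNX3 at 18.4 RPKM, and RUNX3 led in the libraries labelled knockout at 21.1 RPKM with RUNX1 at 12.2 RPKM and RUNX2 at 7.64 RPKM.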
